A study of Mus musculus with 24 samples.

Results

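De novo lipogenesis is the building of fatty acids from acetyl-CoA, and 10 of its genes were followed in liver and in inguinal white adipose tissue (iWAT). They are the regulators *Srebf1* and *Mlxipl*, the induced protein gene *Thrsp*, and the enzyme genes *Acly*, *Me1*, *Acaca*, *Fasn*, *Elovl6*, *Elovl5* and *Scd1*. The genes were picked by symbol for their place in the pathway, and all 10 were found among the 24532 genes of the expression table.

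The libraries came from bulk tissue of C57BL/6 mice that were 8 weeks old and ate chow. Ctrl mice carried *Crif1* alleles flanked by loxP sites (Crif1flox/flox), and LKO mice carried the same alleles together with Alb-Cre, whose albumin promoter drives the recombinase in hepatocytes and not in fat. CRIF1, encoded by *Gadd45gip1*, is a factor needed for translation in mitochondria, so the LKO liver has a defect of oxidative phosphorylation while other tissues keep the gene. There were 3 Ctrl and 3 LKO libraries in each tissue, 12 in the comparison of liver with iWAT and 24 in the series. The labels leave unsaid if a mouse gave both liver and iWAT and do not describe the replicates further, so the p-values measure the spread between these libraries.

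Lipogenesis turns surplus carbohydrate into fat. ATP-citrate lyase (*Acly*) splits citrate into cytosolic acetyl-CoA, malic enzyme (*Me1*) yields NADPH, acetyl-CoA carboxylase (*Acaca*) makes malonyl-CoA and fatty acid synthase (*Fasn*) builds palmitate, which elongases (*Elovl6*, *Elovl5*) and stearoyl-CoA desaturase (*Scd1*) modify. In liver and fat the transcription of these enzymes is known to be driven by SREBP-1c, the insulin-responsive product of *Srebf1*, and by ChREBP, the glucose-responsive product of *Mlxipl*. *Thrsp*, also known as Spot 14, is induced by thyroid hormone and carbohydrate together with the enzymes.

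Values are FPKM, the fragments of a transcript divided by its length and by the fragments sequenced from that library, so that levels of different genes can be set side by side. Depth was between 4.45 and 8.09 gigabases per library. *Gadd45gip1* stood at 12.5 to 14.6 FPKM in Ctrl liver and at 2 to 5.4 in LKO liver, without overlap, with LKO library 1 the highest of the LKO libraries. In iWAT it stood at 11.6 to 16 in Ctrl and 10.4 to 12 in LKO. Liver libraries held 33127 to 53194 FPKM of *Alb*, the hepatocyte albumin gene, and at most 0.278 of *Adipoq*, the adipocyte hormone gene. In iWAT *Adipoq* was at 2784 to 3036 FPKM and *Alb* at 12.8 to 23.8 in Ctrl and 35.2 to 49.2 in LKO.

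*Srebf1*, *Mlxipl* and *Thrsp* fell in LKO liver, so the sequences in front of their starts are shown, together with that of *Acaca*, which moved the other way. The windows are the 250 bases before an annotated start in RefSeq on GRCm38.p6, read 5′ to 3′ on the strand of the gene. Capitals mark the letters CCAAT (the CCAAT box, bound by NF-Y), GGGCGG (the GC box, bound by Sp1) and CACGTG (the E-box of ChREBP and USF), searched on both strands, so that ATTGG and CCGCCC are the same motifs read from the other strand.
Srebf1 (chr11:60210472-60210721, minus strand): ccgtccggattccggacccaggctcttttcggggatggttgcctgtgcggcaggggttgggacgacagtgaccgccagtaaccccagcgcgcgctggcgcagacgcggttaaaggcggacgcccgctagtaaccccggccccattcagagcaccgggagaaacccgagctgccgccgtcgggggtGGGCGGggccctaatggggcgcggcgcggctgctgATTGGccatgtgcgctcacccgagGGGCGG
Mlxipl (chr5:135089640-135089889, plus strand): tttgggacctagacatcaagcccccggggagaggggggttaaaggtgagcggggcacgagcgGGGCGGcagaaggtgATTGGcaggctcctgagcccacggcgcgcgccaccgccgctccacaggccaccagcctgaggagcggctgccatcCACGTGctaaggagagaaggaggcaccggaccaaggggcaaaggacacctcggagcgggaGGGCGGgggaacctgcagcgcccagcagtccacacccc
Thrsp (chr7:97417551-97417800, minus strand): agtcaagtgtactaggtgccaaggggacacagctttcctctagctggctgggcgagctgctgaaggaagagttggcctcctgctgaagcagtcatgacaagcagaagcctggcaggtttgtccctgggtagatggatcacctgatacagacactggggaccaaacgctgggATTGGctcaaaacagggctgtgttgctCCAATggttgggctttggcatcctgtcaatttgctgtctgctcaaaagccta
Acaca (chr11:84195188-84195437, plus strand): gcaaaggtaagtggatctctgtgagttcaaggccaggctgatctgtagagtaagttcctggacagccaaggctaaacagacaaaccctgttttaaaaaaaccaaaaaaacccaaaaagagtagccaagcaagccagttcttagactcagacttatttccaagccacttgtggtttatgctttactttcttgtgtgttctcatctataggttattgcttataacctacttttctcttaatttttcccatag

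The table held 13 windows for 9 of the 10 genes and none for *Scd1*. A CCAAT box was present in 7 of the 13 windows, against 33.8% of the 32851 windows of all genes, and a GC box in 5, against 32.7%. The E-box was found in 2 windows, those of *Mlxipl* shown above and of *Elovl5*, against 6.02% of all windows. The letters CACCCCAC, a form of the sterol regulatory element, were in none of the 13 and in 2.58% of all windows. *Srebf1*, *Mlxipl* and *Me1* have several windows, and their FPKM merge all starts. For *Srebf1* and *Mlxipl* the window with the most motif matches is the one shown. *Me1*, which also rose in LKO liver, is not shown, and its windows held 3 GC boxes and 1 CCAAT box. The windows shown are therefore no contrast of falling with rising genes, and a link of motifs with direction was not tested. None of the 4 motifs was found in 3 windows, that of *Acaca*, that of *Elovl6* and the other *Mlxipl* window (chr5:135106641-135106890), which lies directly before the gene start given below, whereas the *Mlxipl* window shown lies further upstream.

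In Ctrl mice most lipogenic transcripts were far more abundant in fat than in liver. Mean FPKM in iWAT over that in liver was 15.9 for *Fasn*, 14.8 for *Acaca*, 11.4 for *Thrsp*, 6.28 for *Me1*, 4.82 for *Scd1*, 4.53 for *Acly* and 2.51 for *Srebf1*, and for these 7 genes no iWAT library overlapped a liver library. *Mlxipl* and *Elovl5* were higher in liver, by 2.09 and 2.24 times, also without overlap, while *Elovl6* overlapped between the tissues. These ratios are a description of levels, as no scaling between tissues is stated and no test was run on them.

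*Scd1*, which places the double bond in oleate, was the most abundant of the 10 in both tissues, at 625 to 839 FPKM in Ctrl liver and 2758 to 5270 in Ctrl iWAT. In Ctrl liver it was followed by *Thrsp*, *Mlxipl*, *Elovl5*, *Acly*, *Fasn*, *Srebf1*, *Me1*, *Elovl6* and *Acaca*, whose means ran from 144 down to 10.7 FPKM. Neighbours in that order overlapped between *Thrsp* and *Mlxipl*, along the run from *Elovl5* to *Srebf1*, and between *Elovl6* and *Acaca*. In Ctrl iWAT the order after *Scd1* was *Thrsp*, *Fasn*, *Acly*, *Me1*, *Srebf1*, *Acaca*, *Mlxipl*, *Elovl5* and *Elovl6*, with means from 1636 down to 23.5 FPKM. There the ranges of *Thrsp* and *Fasn* overlapped, as did each neighbouring pair from *Acly* to *Acaca*, and *Elovl5* with *Elovl6*. The 10 genes together made up 0.194% to 0.487% of all FPKM of a liver library and 1.17% to 3.12% of an iWAT library.

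**Figure D1:**
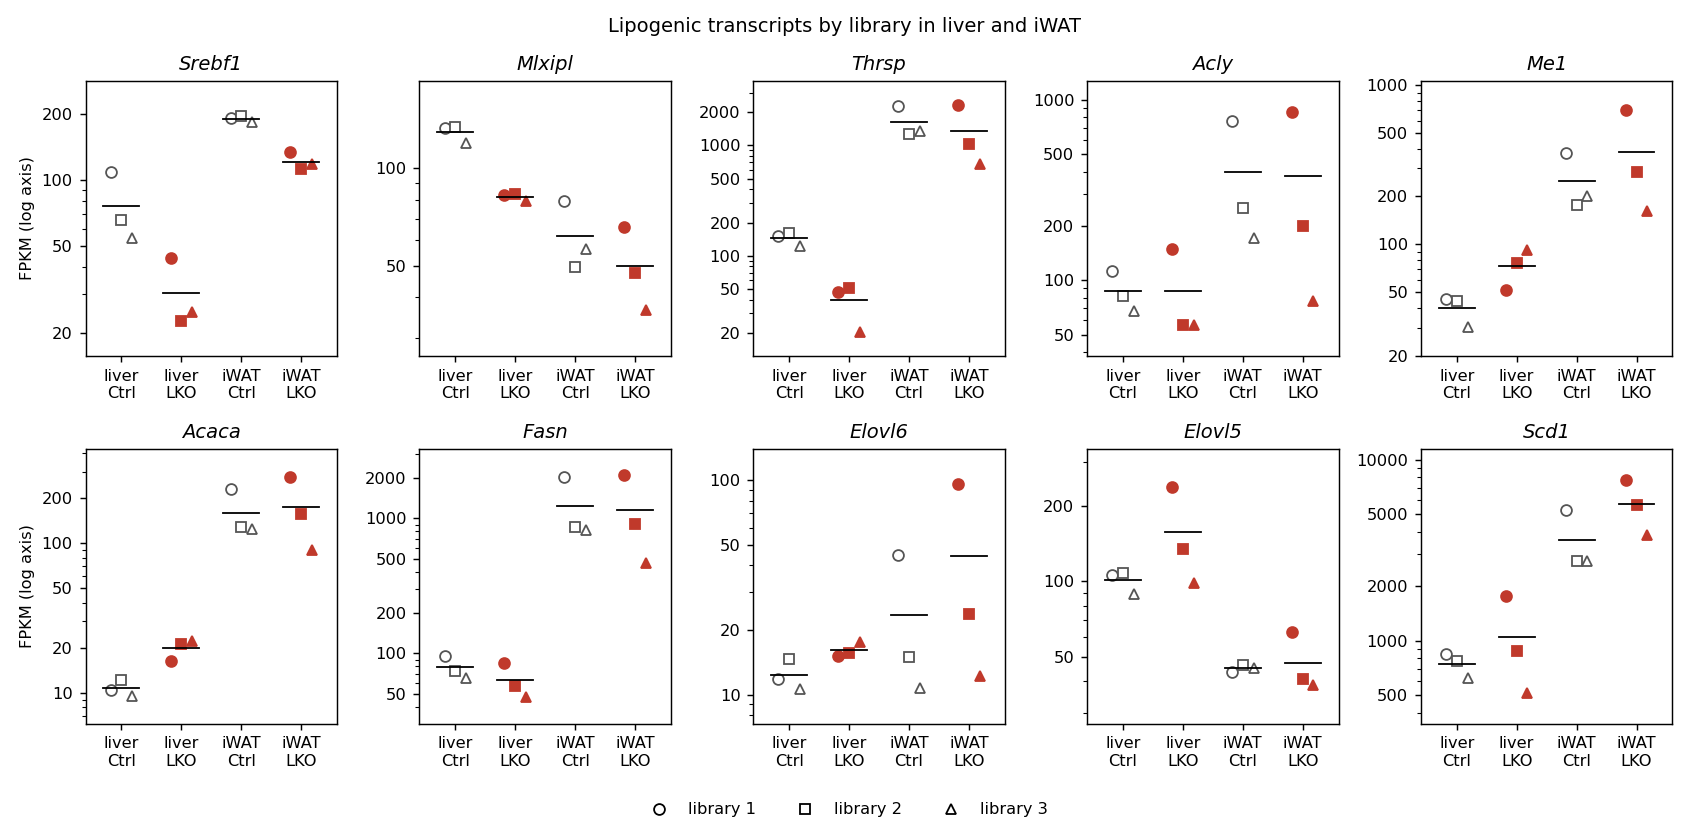
FPKM of each of the 10 genes (vertical log axis) in the 3 Ctrl (open) and 3 LKO (filled) libraries of liver and iWAT, with the library number as the symbol and the group mean as a line. In liver, Srebf1, Mlxipl and Thrsp are lower in every LKO library and Me1, Acaca and Elovl6 are higher in every one, while in iWAT Srebf1 alone has groups that do not overlap.

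The first comparison asked how a mitochondrial defect in hepatocytes changed the lipogenic transcripts of the liver itself. Of the 10 genes, 5 passed an adjusted p of 0.05 in LKO against Ctrl liver, and they went in both directions: *Srebf1*, *Mlxipl* and *Thrsp* fell, and *Me1* and *Acaca* rose. The test was limma on log2(FPKM + 1), and p-values were adjusted with the Benjamini-Hochberg method over the 10956 genes tested in liver, all 10 members among them. On the same test 43.8% of those genes passed, 38.3% higher and 5.49% lower, so 5 of 10 was close to the background. The 3 lower members stand beside that 5.49%, a share that was 15.2% after the scaling given below. The members were chosen with earlier results of these data known, so their count is no test of the pathway. The groups did not overlap for 6 members, 3 lower and 3 higher, against 61.1% of all genes tested (53% higher and 8.1% lower). The median log2 fold change was 0.10 over the 10 members and 0.33 over all genes tested.

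Because the median of all genes stood at 0.33, fold changes were also computed after median-ratio scaling, which brought that median to -0.01. On that scale 32.2% of the genes passed, 17% higher and 15.2% lower. Each member moved down by about the same amount: *Srebf1*, *Mlxipl* and *Thrsp* were still called lower and *Acaca* higher, *Me1* was no longer called, and *Elovl6* and *Scd1* went from above 0 to -0.00 and -0.08. In bulk tissue, fewer cells of a type and less RNA per cell cannot be told apart.

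*Thrsp*, at chr7:97412933-97417550 on mm10, had the largest fall of the 10. It stood at 150, 160 and 122 FPKM in Ctrl libraries 1 to 3 and at 47.2, 51.5 and 20.4 in LKO libraries 1 to 3. Every LKO library was below every Ctrl library, and LKO library 3 was the lowest. The log2 fold change was -1.93 (SE 0.33, 95% interval -2.70 to -1.16, adjusted p = 0.00566) and -2.32 (adjusted p = 0.0087) after scaling. With ordinary in place of moderated variances the adjusted p was 0.0507, while leaving out any single library kept it between 0.000825 and 0.0301.

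*Srebf1*, at chr11:60199084-60220627, was lower in each LKO library as well. It overlaps *Rai1* by 112 bases on the other strand, and the kit kept no strand, but *Rai1* was at most 4.68 FPKM in liver and 6.54 in iWAT. Its values were 109, 65.7 and 54.3 FPKM in Ctrl and 43.9, 22.7 and 25 in LKO liver. Library 1 was the highest of its group in both genotypes, and the highest LKO library lay under the lowest Ctrl library. This was a log2 fold change of -1.29 (SE 0.32, 95% interval -2.03 to -0.55, adjusted p = 0.0188), and -1.68 (adjusted p = 0.0184) after scaling. The call was close to its limit and was lost when Ctrl 1 (-1.01, adjusted p = 0.0545), Ctrl 2 (-1.36, adjusted p = 0.0553), LKO 2 (-1.11, adjusted p = 0.0743) or LKO 3 (-1.18, adjusted p = 0.0516) was left out. With ordinary variances the adjusted p was 0.0871.

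*Mlxipl*, at chr5:135106891-135138382, had the tightest groups of the 10 in liver. Ctrl libraries gave 133, 134 and 120 FPKM and LKO libraries 82.6, 83.2 and 79.5. The groups were well apart, and the spread within each was small, with a highest-to-lowest ratio of 1.12 in Ctrl and 1.05 in LKO. The log2 fold change was -0.65 (SE 0.10, 95% interval -0.88 to -0.42, adjusted p = 0.00382), and -1.04 (adjusted p = 0.00315) after scaling. Leaving out single libraries moved it between -0.70 and -0.62, always called.

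The 2 enzymes that rose were *Acaca* and *Me1*. *Acaca*, at chr11:84195438-84401651, stood at 10.4, 12.2 and 9.55 FPKM in Ctrl and at 16.4, 21.1 and 22.3 in LKO. All LKO libraries were above all Ctrl libraries, with LKO 1 the nearest to Ctrl. Fitted on the log2 scale the change was 0.83 (SE 0.15, 95% interval 0.48 to 1.18, adjusted p = 0.00698), and 0.46 (adjusted p = 0.0218) after scaling.

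For *Me1*, at chr9:86581363-86695914, the Ctrl values were 45.7, 44 and 30.3 FPKM and the LKO values 51.7, 76.5 and 91.8. The groups did not overlap, although LKO 1 was only slightly above the highest Ctrl library. The log2 fold change was 0.84 (SE 0.24, 95% interval 0.28 to 1.41, adjusted p = 0.0292). After scaling it was 0.45 (adjusted p = 0.106), and the call was also lost without a filter on low values (adjusted p = 0.0514) and with ordinary variances (0.105). Leaving out any 1 library other than LKO 1 also took it past the limit, with adjusted p from 0.0565 (Ctrl 1) to 0.0982 (LKO 2), and Ctrl 2, Ctrl 3 and LKO 3 in between.

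*Acly* and *Fasn*, the enzymes at the head of the pathway and at palmitate, did not pass. *Acly*, at chr11:100476352-100528000, stood at 113, 82 and 67.6 FPKM in Ctrl and at 148, 56.7 and 56.8 in LKO, so that LKO 1 was above every Ctrl library and the other LKO libraries below every one. Its log2 fold change was -0.13 (SE 0.38, adjusted p = 0.796). *Fasn*, at chr11:120805958-120824547, gave 96.1, 74.4 and 65.1 in Ctrl and 84.7, 57 and 47.2 in LKO, with library 1 the highest in both groups, and a log2 fold change of -0.34 (SE 0.23, adjusted p = 0.256). Without LKO 1 both were called lower, *Acly* at -0.58 (adjusted p = 0.0247) and *Fasn* at -0.57 (adjusted p = 0.0162).

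The elongases and the desaturase did not pass either. *Elovl6*, which extends palmitate to stearate and lies at chr3:129532386-129638493, was at 11.8, 14.6 and 10.6 FPKM in Ctrl and at 15.2, 15.7 and 17.5 in LKO, a small shift without overlap (log2 fold change 0.37, SE 0.14, adjusted p = 0.0617). It passed without LKO 1 (0.41, adjusted p = 0.0288) and with the deposited TPM (0.50, adjusted p = 0.0241). *Elovl5*, an elongase of polyunsaturated fatty acids at chr9:77917365-77984519, was at 106, 108 and 89.4 in Ctrl and at 237, 135 and 98.2 in LKO. LKO 1 and LKO 2 were above the Ctrl range and LKO 3 inside it, with a log2 fold change of 0.54 (SE 0.29, adjusted p = 0.164) that was 0.82 (adjusted p = 0.0453) without LKO 3 and was 0.19 (adjusted p = 0.286) without LKO 1.

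*Scd1*, at chr19:44394450-44407709, had 839, 773 and 625 FPKM in Ctrl and 1759, 871 and 516 in LKO. The LKO libraries ran from below the lowest to above the highest Ctrl library, and the log2 fold change of 0.32 (SE 0.40, 95% interval -0.63 to 1.27, adjusted p = 0.521) turned to -0.14 without LKO 1. LKO library 1 was the highest LKO library for *Scd1*, *Elovl5*, *Acly*, *Fasn* and *Srebf1*, and it was also the LKO library with the most *Gadd45gip1* (5.4 FPKM against 2 and 2.51) and the most *Alb*. Without it 8 of the 10 members passed, 3 higher and 5 lower, as did 7036 of all genes, 6144 higher and 892 lower. With all libraries it was 5 members and 4794 genes, so the count rose over all genes and not for the members alone. The part of LKO library 1 in these results was not tested.

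Markers listed for other cell types also differed between the liver groups. The summed FPKM of 5 macrophage markers was 67.1 to 74.3 in Ctrl and 171 to 263 in LKO, with 5 of 5 called higher. For 4 fibroblast markers it was 58.1 to 67.2 against 154 to 168 (4 of 4 higher, *Pdgfra* having passed the filter on low values, 1 FPKM in 3 or more of the 6 libraries, through LKO alone), for 7 epithelial and duct markers 193 to 285 against 672 to 787 (5 of the 5 tested higher, *Krt7* and *Epcam* likewise), for 4 monocyte and neutrophil markers 1.55 to 1.86 against 9.36 to 12.4 (2 of the 2 tested higher, *S100a8* likewise), and for 9 adipocyte markers 21.9 to 24.3 against 46.4 to 57.3 (3 of the 5 tested higher, with *Plin1* at most 0.0969 FPKM). The 6 hepatocyte markers summed to 57071 to 60219 in Ctrl and 41990 to 69914 in LKO, 1 of 6 being called lower. None was called of the 5 muscle (5.04 to 13.8 against 13.3 to 19), the 3 tested blood (171 to 262 against 173 to 241) and the 2 tested brown or beige adipocyte genes (25.5 to 28.7 against 26 to 33.1). The 5 lymphocyte markers, under 1 FPKM in all liver libraries, were not tested (sum 0.933 to 1.42 against 1.14 to 1.92). The epithelial and duct list includes *Krt8* and *Krt18*, which are not particular to duct cells, so its sum is no measure of duct cells alone. The part of these cell types in the values of the 10 genes was not tested.

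**Figure D2:**
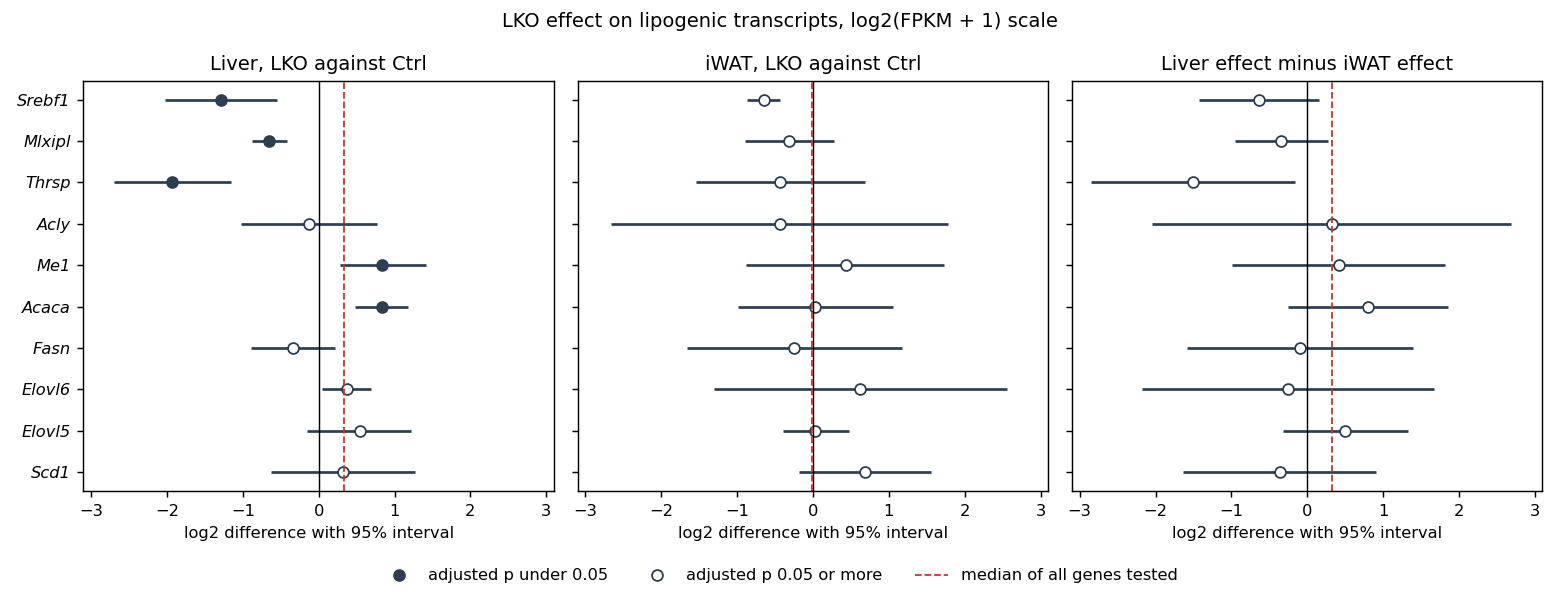
LKO effect on each of the 10 genes (horizontal axis, log2 difference with its 95% interval) in liver, in iWAT, and as the liver effect minus the iWAT effect, with filled points for an adjusted p under 0.05 and the dashed line at the median of all genes tested. In liver 5 genes are called, 3 left of 0 and 2 right of it, while in iWAT and in the difference no gene is called.

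The second comparison asked whether the same genes changed in the subcutaneous fat of mice whose defect lies in the liver. No member passed the adjusted test in iWAT, nor did any of the 12288 genes tested there (0% called by limma, smallest adjusted p = 0.0734), although 1842 genes (15%) had an unadjusted p under 0.05. By a fold change of at least 1.5 with an unadjusted p under 0.05, the fold limit of the study, *Srebf1* was the 1 member past it, lower, against 3.25% of all genes tested (1.95% higher and 1.29% lower). That split of 240 genes higher and 159 lower was 226 and 382 without Ctrl 1, and 369 and 231 without LKO 1. The groups of *Srebf1* did not overlap, and those of the other 9 members did, against 20.8% of all genes without overlap (11% lower). For any 1 gene, exact two-sided permutation of 3 libraries against 3 reaches p = 0.1 at the lowest. The median log2 fold change was -0.11 over the members and -0.01 over all genes.

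*Srebf1* stood at 193, 196 and 184 FPKM in Ctrl iWAT and at 134, 112 and 118 in LKO iWAT. All 3 LKO libraries were below all 3 Ctrl libraries, with a spread of at most 1.2 times within a group. The fitted log2 change was -0.65 (SE 0.09, 95% interval -0.87 to -0.44, unadjusted p = 0.000227, adjusted p = 0.0884). Without LKO 1 it was -0.73 with an adjusted p of 0.046, and over all alternatives the adjusted p ran from 0.046 to 0.33.

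*Mlxipl* and *Thrsp* had wider groups. *Mlxipl* was at 79.2, 49.5 and 56.4 FPKM in Ctrl and 65.7, 47.6 and 36.6 in LKO (log2 fold change -0.31, SE 0.25, adjusted p = 0.595), and *Thrsp* at 2293, 1277 and 1338 against 2321, 1033 and 674 (-0.43, SE 0.47, adjusted p = 0.704). For both genes library 1 was the highest of each group, and LKO 3 the lowest of all 6.

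*Acly* ran over the widest range of the 10. Its Ctrl values were 765, 252 and 171 FPKM and its LKO values 852, 199 and 76.8, which is a ratio of 11.1 between the highest and the lowest LKO library. The log2 fold change was -0.44 with an SE of 0.93 and a 95% interval from -2.66 to 1.78. *Me1* was at 377, 177 and 200 against 699, 285 and 162 (log2 fold change 0.43, SE 0.55), and *Acaca* at 228, 127 and 124 against 276, 155 and 89.8 (0.03, SE 0.43).

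*Fasn* gave 2040, 870 and 824 FPKM in Ctrl iWAT and 2082, 902 and 467 in LKO iWAT, with LKO 1 and LKO 2 close to Ctrl 1 and Ctrl 2 and LKO 3 below all others (log2 fold change -0.25, SE 0.59). *Elovl6* was at 44.9, 15 and 10.7 against 96.3, 23.7 and 12.2 (0.62, SE 0.81, adjusted p = 0.75). *Elovl5* had a narrow Ctrl group, 43.7, 46.6 and 45.1, and LKO values of 62.9, 40.8 and 38.5 on both sides of it (0.03, SE 0.18, 95% interval -0.40 to 0.47).

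*Scd1* had the largest positive log2 fold change of the 10 in iWAT in the main fit, short of the test. That of *Elovl6*, at 0.62, was close to it and was the larger without Ctrl 1, LKO 2 or LKO 3. *Scd1* values were 5270, 2758 and 2762 FPKM in Ctrl and 7715, 5634 and 3835 in LKO. Only Ctrl 1 lay within the LKO range, with the other Ctrl libraries below every LKO library. On the log2 scale LKO differed from Ctrl by 0.68 (SE 0.36, 95% interval -0.18 to 1.55, adjusted p = 0.427). Reads of *Scd1* can be shared with its paralogs *Scd2* and *Scd3*, which leaves its level uncertain to that extent.

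Library number 1 stood out within both iWAT groups. It was the highest library of both genotypes for 8 of the 10 members, all but *Srebf1* and *Elovl5*, which was the case for 15.1% of all genes tested. The median ratio of library 1 to the mean of libraries 2 and 3 was 1.86 in Ctrl and 2.49 in LKO over the members, and 0.95 and 0.951 over all genes. Within LKO iWAT the highest library exceeded the lowest by over 2 times for 7 of 10 members, against 4.37% of all genes. The libraries numbered 1 were also the deepest of iWAT, at 7.95 and 7.58 gigabases against 4.63 to 5.22.

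Among adipocyte markers, *Adipoq* had 3036, 2784 and 2902 FPKM in Ctrl and 2943, 2909 and 2916 in LKO. *Plin1*, the coat protein gene of the lipid droplet, had 1104, 787 and 876 in Ctrl, where library 1 was the highest, and 869, 888 and 976 in LKO, where it was the lowest. Of 9 adipocyte markers 3 had an unadjusted p under 0.05 and none an adjusted one, and the sum of all 9 was 44943 to 49917 in Ctrl and 42365 to 51989 in LKO. Muscle markers summed to 524 FPKM in Ctrl 1 and 834 in LKO 2 and to at most 95.4 in the others. Macrophage markers were at 644 to 1674 in Ctrl and 639 to 853 in LKO, fibroblast markers at 1707 to 3098 and 1650 to 2214, monocyte and neutrophil markers at 28.3 to 58 and 34.7 to 49.3, lymphocyte markers at 1.85 to 2.9 and 1.79 to 2.38, epithelial markers at 1.51 to 2.18 and 1.66 to 18.2, blood markers at 226 to 606 and 41.7 to 853, and hepatocyte markers at 14.4 to 25.9 and 36.9 to 54.5. Their part in the spread of the lipogenic genes was not tested.

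Without both libraries numbered 1, an alternative chosen after their values were seen, 3 members were past the 1.5-fold limit with an unadjusted p under 0.05, against 706 of all genes, 334 higher and 372 lower. With all libraries it was 1 member and 399 genes. *Srebf1* was at -0.72 (adjusted p = 0.0504), *Thrsp* at -0.65 (unadjusted p = 0.0362) and *Scd1* at 0.75 (unadjusted p = 0.0184). None had an adjusted p under 0.05.

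**Figure D3:**
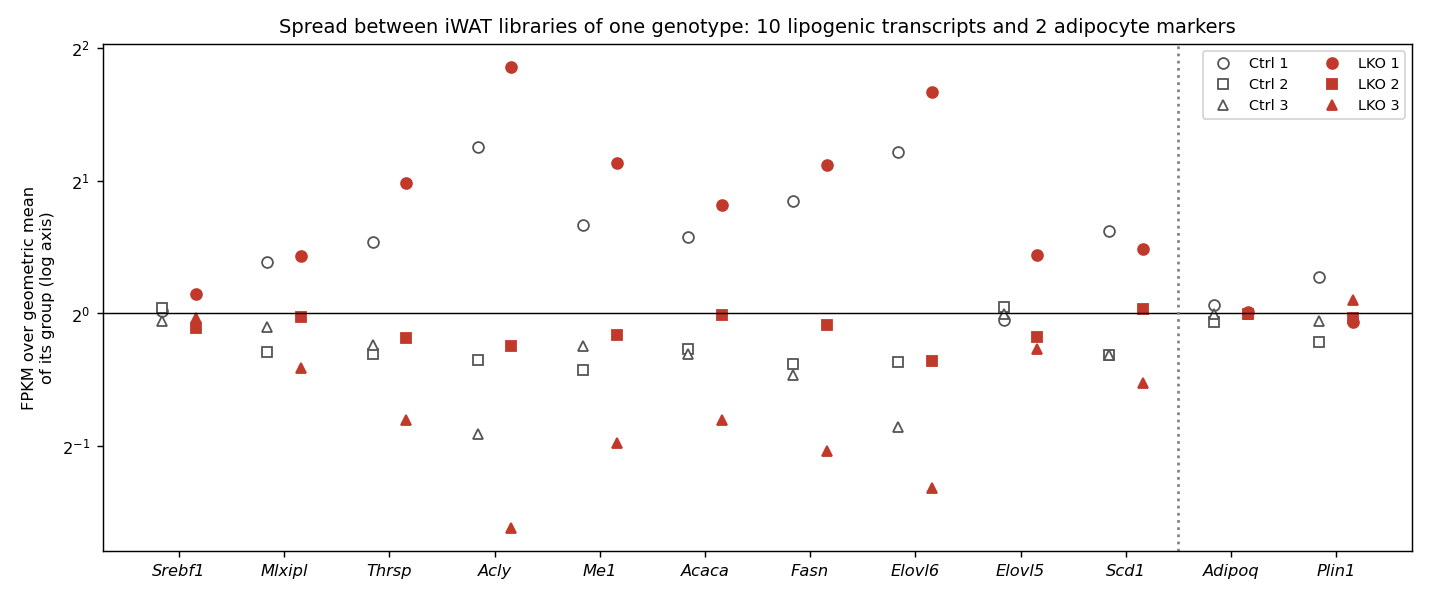
FPKM of the 10 genes and of the adipocyte markers Adipoq and Plin1 in each iWAT library, divided by the geometric mean of its group (vertical log axis), with Ctrl libraries open and LKO libraries filled. Library 1 lies at the top of both groups for 8 of the 10 genes, LKO 3 is the lowest LKO library for 9 of them, Adipoq lies close to 1 in all 6, and Plin1 is highest in library 1 in Ctrl and in library 3 in LKO.

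The third comparison set the LKO effect in liver against that in iWAT, as a difference of log2 fold changes fitted over the 12 libraries, taken as independent. In that fit none of the 10 members passed the adjusted test, against 33.3% of the 10066 genes tested in both tissues, and 1 member had an unadjusted p under 0.05, against 46.8% of all genes. The median difference over all genes was 0.33. The 5 members called in liver and not in iWAT are therefore not shown by this fit to differ between the tissues. With the replicate number as a block, an alternative given below, 3 members passed, *Srebf1*, *Thrsp* and *Acaca*, against 29.6% of all genes. The labels do not say that this number marks a mouse.

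In the fit without a block *Thrsp* came nearest, with a liver effect 1.51 lower on the log2 scale than the iWAT effect (difference -1.51, SE 0.62, 95% interval -2.85 to -0.16, unadjusted p = 0.0318, adjusted p = 0.0772). It fell in liver from a mean of 144 to 39.7 FPKM, while in iWAT the means were 1636 and 1343 FPKM. The difference passed without iWAT LKO 3 (-1.91, adjusted p = 0.0379) and with all 24 libraries in the fit (adjusted p = 0.0412).

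For *Srebf1* the difference was -0.64 (SE 0.36, 95% interval -1.43 to 0.16, adjusted p = 0.185), with mean levels of 76.2 and 30.5 FPKM in liver and of 191 and 121 in iWAT. It passed without liver LKO 1 (-0.92, adjusted p = 0.0231). For *Acaca* it was 0.80 (SE 0.48, 95% interval -0.26 to 1.85, adjusted p = 0.21), and 1.20 (adjusted p = 0.0424) without iWAT LKO 1. *Mlxipl* (-0.34, interval -0.95 to 0.27) and *Elovl5* (0.50, interval -0.32 to 1.33) had narrower intervals than the enzymes *Acly* (0.32, interval -2.05 to 2.69), *Elovl6* (-0.26, interval -2.18 to 1.67), *Fasn* (-0.09, interval -1.58 to 1.40), *Me1* (0.42, interval -0.99 to 1.82) and *Scd1* (-0.36, interval -1.64 to 0.91). Those intervals include differences of more than 1.5-fold in both directions for the last 5 genes.

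Genes around the pathway were read from 4 lists. Their counts in liver stand against 38.3% of all genes called higher and 5.49% lower (17% and 15.2% after scaling), and those in iWAT against 1.95% higher and 1.29% lower past the 1.5-fold limit. Of 14 further regulators, all tested, 1 was called higher and 1 lower in liver, with a median log2 fold change of 0.09. After median-ratio scaling the counts were 1 higher and 4 lower. *Insig1*, which retains SREBP in the endoplasmic reticulum and is itself a target of SREBP, fell from 170, 125 and 123 FPKM to 123, 44.7 and 51 (-1.06, adjusted p = 0.0491), LKO 1 being level with the lowest Ctrl library, and its adjusted p ran from 0.000159 without LKO 1 to 0.15, above 0.05 when any of the other 5 was left out. *Mbtps2*, the site-2 protease that frees SREBP, rose from 1.47, 1.54 and 1.85 to 2.35, 3.39 and 4.94 (0.76, adjusted p = 0.0248), a call lost when any 1 Ctrl library or LKO 2 was left out (adjusted p up to 0.0809). *Mid1ip1*, the relative of *Thrsp* that activates acetyl-CoA carboxylase, was at 33.6, 23.3 and 15.8 against 16, 12.3 and 15.1 (-0.65, adjusted p = 0.0692), and was called lower after scaling (-1.03, adjusted p = 0.0295) and without Ctrl 3 or LKO 1 (adjusted p as low as 0.0312).

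In iWAT 2 of these 14 regulators were past the 1.5-fold limit with an unadjusted p under 0.05, both lower. *Mid1ip1* had 49.2, 38.2 and 37.8 FPKM in Ctrl and 27.1, 13.6 and 13.5 in LKO, without overlap (-1.23, SE 0.27, adjusted p = 0.131, and 0.046 without LKO 1). *Insig1* had 103, 100 and 148 against 90.5, 59.8 and 80.5, also without overlap (-0.60, adjusted p = 0.254). *Insig2* stood at 18.4 to 20.9 in Ctrl and 25.7 to 26.9 in LKO (0.39, adjusted p = 0.109).

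Of 12 genes of glucose entry and precursor supply, 11 were tested in liver, where 3 were called higher, no more than the share of all genes, and none lower, with a median of 0.09. After scaling 2 were higher and 2 lower. *Pgd* and *G6pdx*, enzymes of the pentose phosphate pathway, were called higher, while *Idh1*, which like them forms NADPH, was at -0.37 (adjusted p = 0.136, and 0.00545 without LKO 1). *Pgd* went from 22.9, 16.2 and 17.9 to 34, 42.3 and 53.7 FPKM (1.14, adjusted p = 0.00556) and *G6pdx* from 1.93, 1.44 and 1.59 to 3.01, 3.44 and 4.2 (0.77, adjusted p = 0.00647), both without overlap and both still called after scaling (0.75 and 0.49) and without any 1 library. *Tkt*, the transketolase of the same pathway, was at 40 to 45.4 against 41.5 to 83.1 (0.57, adjusted p = 0.0861, and 0.000419 without LKO 1). In iWAT none of the 9 tested was past the 1.5-fold limit: the log2 fold change was -0.37 for *Idh1*, 0.15 for *Mdh1* and 0.15 for *Acss2*, with *Acss2* at 147 and 210 FPKM in the libraries numbered 1 and 36.5 to 81 in the others.

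Of 17 genes for malonyl-CoA turnover, other desaturases and elongases, 14 were tested in liver, 4 being called higher and 1 lower, with a median of 0.37. After scaling 1 was higher and 3 lower. *Elovl3*, an elongase of very long saturated chains, had the largest fall of the list, from 441, 305 and 451 FPKM to 33.4, 36.3 and 12.8 (-3.92, SE 0.38, adjusted p = 0.00103). *Hacd1*, a dehydratase of the elongation cycle, rose from between 6.04 and 6.73 FPKM in Ctrl to between 10.3 and 16.9 in LKO (0.91, adjusted p = 0.00853). Both calls held after scaling (-4.30 and 0.55) and without any 1 library. *Scd2* was at 1.85 to 2.24 in Ctrl and at 20.7, 3.75 and 3.89 in LKO (1.41, adjusted p = 0.0699), with LKO 1 again the highest, and without LKO 1 its adjusted p was 0.00102.

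In iWAT 13 of that list were tested and 3 were past the 1.5-fold limit, all higher, against 1.95% of all genes. The direction of 1 of the 3, *Elovl3*, was set by the filter on low values, which it passed through its LKO libraries alone. *Scd3* stood at 17.8, 10.2 and 9.67 against 26.2, 21.3 and 15.3 FPKM (0.71, adjusted p = 0.289) and *Acacb*, the carboxylase of the mitochondrial surface, at 49.5, 38.1 and 35.4 against 74.7, 64.5 and 52.5 (0.63, adjusted p = 0.175). *Elovl3*, which brown and beige adipocytes also express, was at 0.508, 0.548 and 0 FPKM in Ctrl, all under the 1 FPKM of the filter, and at 2.24, 1.04 and 3.91 in LKO (1.26, adjusted p = 0.172). The sum of 6 brown or beige adipocyte genes was 58.3 to 291 in Ctrl and 207 to 428 in LKO, and *Ucp1* 4.5 to 81.6 and 41.1 to 211. The part of such cells in the level of *Elovl3* was not tested.

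Of 8 esterification genes, 6 were tested in liver, with 1 called higher and 1 lower and a median of -0.04, and 0 higher and 1 lower after scaling. *Lpin2*, a phosphatidate phosphatase, rose from 42.8, 47 and 48.4 to 73.1, 93.9 and 72.7 FPKM (0.77, adjusted p = 0.00539), which was 0.38 (adjusted p = 0.0955) after scaling. *Agpat2*, an acyltransferase of phosphatidate synthesis, fell from 125, 111 and 119 to 92.1, 84.1 and 71.3 (-0.52, adjusted p = 0.0166), a call lost when any 1 Ctrl library or LKO 2 was left out (adjusted p up to 0.0678). *Lpin1* was at 9.96, 81.1 and 76.9 against 13.4, 53.4 and 22.9 (-0.64, adjusted p = 0.532), with library 1 the lowest of both groups. In iWAT all 8 were tested and 1 was past the 1.5-fold limit, *Pnpla3*, a SREBP-1c target, at 334, 215 and 323 against 229, 123 and 106 (-0.98, adjusted p = 0.232). The final acyltransferases of triglyceride synthesis, *Dgat2* and *Dgat1*, had log2 fold changes of -0.51 and 0.48 (adjusted p = 0.651 and 0.211).

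The difference between the tissues was called for 2 of 14 regulators, 1 higher and 1 lower, and for 4 of 13 genes of malonyl-CoA turnover, desaturases and elongases, 3 higher and 1 lower, against 33.3% of all genes (30.3% higher and 2.99% lower). None was called of 8 supply genes and 6 esterification genes. After scaling the regulators had 0 higher and 3 lower, the desaturases and elongases 1 and 2, and the supply and esterification genes 0 and 1 each. Over all genes 12.1% were then called higher and 11.2% lower. In the regulator list *Mbtps2* had the higher effect in liver (difference 0.70, adjusted p = 0.0428) and *Scap*, the escort protein of SREBP, the lower one (-0.37, adjusted p = 0.0408). Leaving out any 1 library other than liver LKO 1 ended the call of *Mbtps2* (adjusted p up to 0.0865), and any other than liver LKO 1 or iWAT LKO 1 that of *Scap* (up to 0.102). In the list of desaturases and elongases the liver effect was lower for *Elovl3* (-5.18, SE 0.55, adjusted p = 0.000336) and higher for *Hacd1* (difference 0.97, SE 0.22, adjusted p = 0.00959), and both differences were still called after scaling (-5.45 and 0.60) and without any 1 library. Of the *Elovl3* difference, 1.26 is the iWAT effect whose direction the filter set. It was also higher for *Elovl1* (0.63, adjusted p = 0.0235) and *Hacd2* (0.59, adjusted p = 0.0219), but neither was called after scaling (adjusted p = 0.265 and 0.417). The call of *Elovl1* was also lost without Ctrl 2 or LKO 2 of either tissue (up to 0.0585), and that of *Hacd2* without Ctrl 3 of either tissue, liver LKO 2 or iWAT LKO 3 (up to 0.0552). *Mbtps2* was not called after scaling either (0.43, adjusted p = 0.0982). *Scap*, *Elovl1* and *Hacd2* were chosen after their values were seen.

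**Figure D4:**
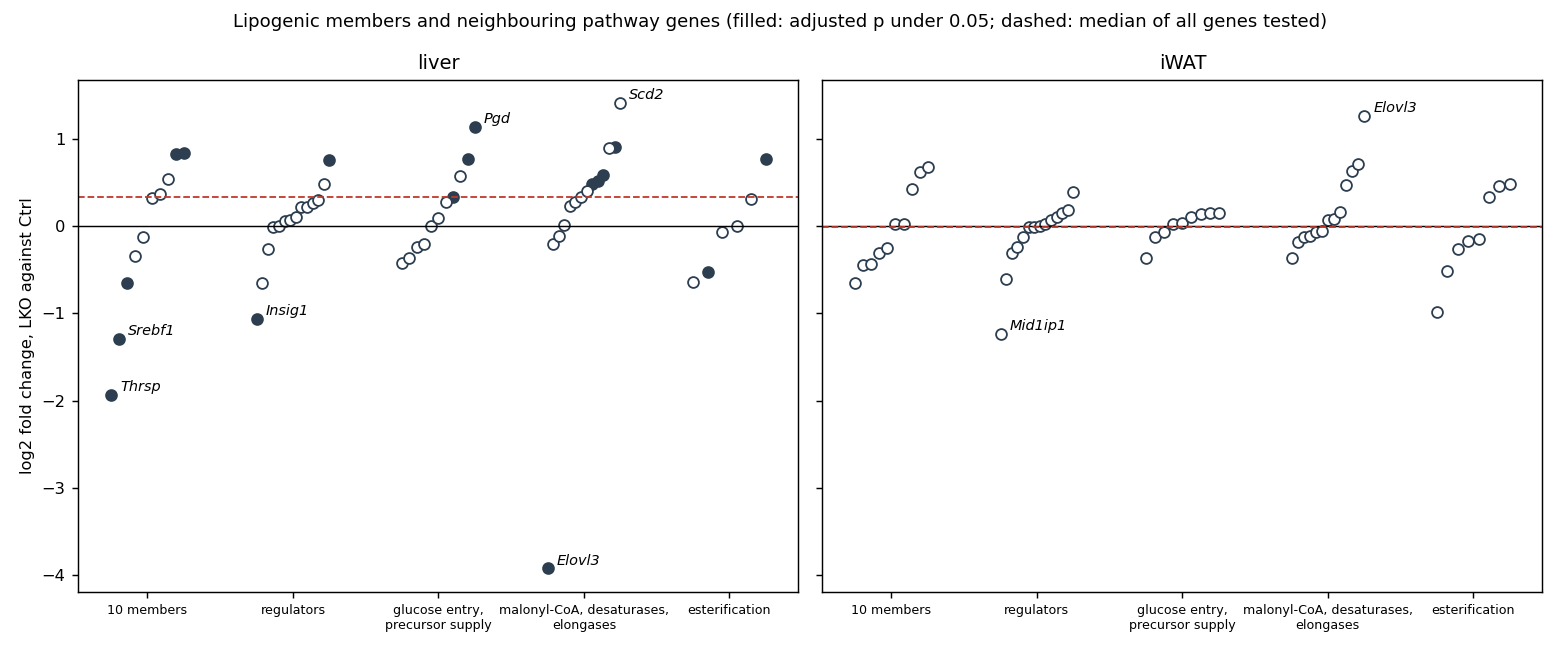
Log2 fold change of LKO against Ctrl (vertical axis) for the 10 lipogenic genes and the tested genes of 4 neighbouring lists in liver and iWAT, with filled points for an adjusted p under 0.05 and the dashed line at the median of all genes tested. In liver Elovl3 lies lowest, at -3.92, and Pgd at 1.14 is the highest called gene of the 5 groups, while no iWAT point is filled. After median-ratio scaling these were -4.30 and 0.75.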

How the data were processed

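Libraries of liver, iWAT, GM (gastrocnemius muscle) and hypothalamus were prepared with a TruSeq kit and read as paired ends on a HiSeq4000. The submitters' processing notes name FastQC 0.11.5, Trimmomatic 0.32, HISAT2 2.0.5, Bowtie2 2.2.6, STAR 2.5.2b, StringTie 1.3.3b and mm10, without saying which of the aligners made the values. The authors deposited 1 joined table of FPKM per gene, relative to the fragments of a library, and for each library the coverage (mean read depth, not scaled), FPKM and TPM of every gene, the TPM being scaled by the authors to a fixed sum. Depth was worked out from the ratio of coverage to FPKM. Counts were not used, so counting error cannot be given, and no column of another sample was left unused (0).

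Genes that reached 1 FPKM in 3 or more of the 6 libraries of a tissue were tested with limma 3.58.1 in R 4.3.3 (eBayes with trend) on log2(FPKM + 1), a scale that understates changes of low genes. Each tissue was fitted alone, and the difference of effects over 12 libraries taken as independent, with two-sided p-values adjusted by Benjamini-Hochberg over all genes tested. The fit was checked on simulated data. Python 3.11.15, numpy 2.4.6, pandas 2.3.3 and matplotlib 3.10.9 served for the rest.

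Alternatives were a pseudocount of 0.1, no filter, median-ratio scaling, TPM, ordinary variances, a fit of all 24 libraries, the replicate number as a block, and leaving out each library. Named were the 10 members, up to 3 genes per list and tissue with the largest change, *Gadd45gip1*, markers, and the 5 genes most correlated with the members' mean. Members and lists were chosen with earlier results of these data known.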

Additional observations from a re-analysis of the deposited data

Results flagged for a closer look

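The LKO effect differed between liver and iWAT, by the test of the difference of log2 fold changes, for 2 of 14 regulators and 4 of 13 genes of malonyl-CoA turnover, desaturases and elongases, and for none of the 10 members, against 33.3% of all genes. For *Hacd1* the difference was 0.97, with log2 fold changes of 0.91 in liver and -0.07 in iWAT. For *Elovl3* it was -5.18, with -3.92 in liver and 1.26 in iWAT, where the gene passed the filter on low values through its LKO libraries alone, so that its direction in iWAT was fixed by the filter. The other values were 0.70 for *Mbtps2*, 0.63 for *Elovl1* and 0.59 for *Hacd2*, none of them called after median-ratio scaling (adjusted p = 0.0982, 0.265 and 0.417), and -0.37 for *Scap*. The calls of *Mbtps2* and *Scap* were lost without almost any 1 library, other than liver LKO 1 for both and iWAT LKO 1 for *Scap*. The median difference over all genes tested was 0.33.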

How the results depend on the processing

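The 10 members kept their direction in 141 of 150 alternative values in liver, 138 of 150 in iWAT and 206 of 220 for the difference of effects. These counts overstate the agreement. Leaving out the filter, ordinary variances, all 24 libraries in 1 fit and a block alone cannot change a fold change, only its error or its adjusted p. Moderation and scaling bore on the counts. With ordinary variances 2 members (*Mlxipl* and *Acaca*) and 2319 genes passed in liver. With the deposited TPM 4956 liver genes were past 1.5-fold. After median-ratio scaling 14 iWAT genes passed. With all 24 libraries in 1 fit 645 iWAT genes passed, and in the difference 1 member, *Thrsp*, and 4565 of all genes. Scaling also turned *Elovl6* (-0.00) and *Scd1* (-0.08) in liver and *Acly* in the difference (-0.10). Without both libraries numbered 1, 2 iWAT genes passed, 3 members and 706 genes were past 1.5-fold in iWAT, and 2 members (*Srebf1* and *Acaca*) and 5046 genes passed in the difference. The log2 values of *Scd1* in liver (-0.05), *Acaca* in iWAT (-0.09) and *Elovl5* in iWAT (-0.21) then turned. Depth is given by coverage alone, so counting error of single values is unknown, and the causes of these changes were not tested.

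Leaving out 1 library gave 3 to 8 members and 1401 to 7036 genes passing in liver, with 1937 to 3914 past 1.5-fold. In iWAT it gave 0 to 1 members and 0 to 115 genes passing, and 1 to 2 members and 297 to 608 genes past 1.5-fold. For the difference it gave 0 to 1 members and 1907 to 5221 genes. In liver, *Acly* then ran from -0.58 to 0.10 and *Scd1* from -0.14 to 0.74. In iWAT, *Acly* ran from -1.37 to 0.36, *Me1* from -0.14 to 0.91, *Acaca* from -0.37 to 0.43, *Fasn* from -0.81 to 0.27, *Elovl6* from -0.19 to 1.26 and *Elovl5* from -0.18 to 0.16. For the difference, *Acly* ran from -0.49 to 1.24, *Me1* from -0.07 to 0.98, *Fasn* from -0.61 to 0.47, *Elovl6* from -0.89 to 0.56 and *Scd1* from -0.83 to 0.06.

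The labels number the libraries 1 to 3 in each group without saying that a number marks a shared mouse or day. Over all tested genes the deviations of Ctrl and LKO libraries of the same number correlated at 0.15, 0.03 and 0.04 in liver and at 0.30, -0.12 and 0.20 in iWAT, so the numbers were not taken as pairs. Between liver and iWAT of one genotype the correlations were 0.18, 0.12 and 0.31 in Ctrl and 0.04, 0.13 and 0.07 in LKO, each library being closest to its own number, a hint from the data and not from the design. With the replicate block 3 members of iWAT were past 1.5-fold (3.52% of all genes), and 3 members of the difference passed (*Srebf1* and *Thrsp* lower, *Acaca* higher, adjusted p = 0.0266, 0.0198 and 0.0445), against 29.6% of all genes. A block shared across tissues gave 1, *Thrsp* (adjusted p = 0.0244), against 3334 of all genes. The block with median-ratio scaling gave 3 in iWAT (433 of all genes) and 3 in the difference (2236 of all genes), there all lower, with *Mlxipl* (-0.76, adjusted p = 0.0291) in place of *Acaca* (0.41, adjusted p = 0.223), and also 2885 genes in liver, where *Fasn* was then called lower (-0.73, adjusted p = 0.0355) and *Me1* not (0.45, adjusted p = 0.159), and -0.00 for *Elovl6* and -0.08 for *Scd1* in liver and -0.10 for *Acly* in the difference.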

Other observations

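In Ctrl mice the mean of each of the 10 genes was lower in GM and in hypothalamus than in iWAT, while against liver *Me1* was higher in GM (80 to 91.6 against 30.3 to 45.7 FPKM) and *Acaca* (9.58 to 11.1 against 9.55 to 12.2), *Acly* (46 to 71.8 against 67.6 to 113) and *Elovl6* (9.8 to 13.5 against 10.6 to 14.6) overlapped with it in hypothalamus. The genotypes were not tested in these tissues here. In hypothalamus *Scd1* was at 65.5 to 83.9 FPKM in Ctrl and 67.3 to 70.3 in LKO, *Acly* at 52.8 to 55.4 in LKO, and *Fasn* at 37.4 to 53.2 and 42.3 to 44.9, so that the LKO libraries lay inside the Ctrl range for each of these genes. *Mlxipl* was low there, at 1.43 to 1.79 FPKM in Ctrl and 1.4 to 1.42 in LKO, every LKO library being slightly below every Ctrl library. *Srebf1* reached below its Ctrl range there, with 28.2 to 33.1 FPKM in Ctrl and 26.4 to 30.9 in LKO.

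In GM *Me1* had the highest mean of the 10 in both genotypes, with 73.6 to 87 FPKM in LKO, although *Scd1* was above it in LKO 1. *Scd1* and *Fasn* varied between libraries of one genotype: *Scd1* from 11 to 58.8 FPKM in Ctrl and from 9.87 to 122 in LKO, and *Fasn* from 4.16 to 15.9 and from 2.65 to 28.1. The libraries with the most *Scd1* in each group, LKO 1, Ctrl 1 and Ctrl 2, also held the most *Adipoq*, at 48.1, 27.3 and 39.1 FPKM against 6.53 to 10.5 in the others. The part of adipocytes in those values was not tested.

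The 5 genes whose log2(FPKM + 1) over the 24 libraries was closest to the mean of the 10 members, out of 15847 genes, were *Echdc1* (Pearson's r 0.980), *Slc25a10* (0.977), *Pex16* (0.971), *Dbi* (0.971) and *Tmem120a* (0.970). The libraries of 4 tissues form separate clusters in such a measure, which differences between tissues dominate, and libraries of one tissue share their source, so these values are a description without a test.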
